A study of Homo sapiens with 12 samples.

Results

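A set of 10 genes of the Notch pathway were examined in RNA sequencing libraries from 2 uterine leiomyosarcoma (uLMS) cell lines. They were the receptors NOTCH1, NOTCH2, NOTCH3, and NOTCH4, the DNA-binding factor RBPJ, the coactivators MAML1, MAML2, and MAML3, and the nuclear cofactors SNW1 and SPEN. The genes were taken by symbol from the count table, where 10 of 60649 rows matched, and all 10 were among the 21114 genes that passed the filter on low counts. The rule that picked them used symbols and no measured value, although it was set with earlier results of these data known.

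A Notch receptor sits in the cell membrane and is bound by a Delta-like or Jagged ligand on a neighbouring cell. An ADAM protease then removes the outer part, and gamma secretase cuts the remaining stub within the membrane, which frees the intracellular domain to enter the nucleus. There it joins RBPJ and a Mastermind-like (MAML) coactivator at target genes such as HES1. In the absence of the intracellular domain, RBPJ is held with corepressors, of which SPEN is one, and SNW1 (SKIP) is a splicing and transcription cofactor that can be found with either form of the complex. NOTCH3 is best known as the receptor of vascular smooth muscle, and uLMS is a malignancy of uterine smooth muscle.

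Both lines were grown in medium with serum, starved of serum, and then exposed for 72 h to the DMSO vehicle control or to drug at the IC30, the concentration that lowered viability by 30%. Neither line carried a genetic change made for the study, and the labels give both as wild type. MK-0752 is a gamma secretase inhibitor, gemcitabine is a nucleoside analog, and docetaxel stabilizes microtubules. SK-UT-1B, described by the study as a primary tumor line, had 2 libraries after DMSO (4-1 and 4-2) and 2 after MK-0752 with gemcitabine and docetaxel (3-1 and 3-3), called the combination here. SK-LMS-1, described as metastatic, had 4 libraries after DMSO (2-1, 2-3, 4-1, and 4-2), 2 after MK-0752 alone (2-2 and 2-3), and 2 after the combination (4-1 and 4-2). The first number of a library is not explained in the labels, and each SK-LMS-1 treatment was compared with the DMSO libraries of the same first number. In SK-UT-1B the first number differed between DMSO and the combination, so that whatever it stands for cannot be told apart from the treatment there. The MK-0752 concentration was higher alone than within the combination, and the treatments had been chosen for sequencing because HES1 fell by qPCR. The study gives each drug of the combination at a lower concentration in SK-UT-1B than in SK-LMS-1. In comparisons of the lines after the combination, line and drug concentration therefore cannot be told apart. Each kind of tumor is represented by 1 line, and nothing in the labels says whether the libraries came from separate cultures, so the p-values measure only the spread between these libraries. RNA was taken from whole cultures, where fewer cells with a transcript and less of it per cell cannot be told apart.

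Total counts per library ran from 25250057 to 40709885. In each library, 17.4% to 34.7% of the genes for which the rest of that line predicted 5 to 500 counts were at 0, where independent sampling of reads would leave 0.0174% to 0.0373%. In a separate set, selected differently, zeros in treated SK-LMS-1 libraries were counted. Of 2327 genes with 50 to 500 counts in each of the 4 SK-LMS-1 DMSO libraries, a range chosen after NOTCH3 was seen, 0.0430% to 0.172% were at 0 in a given treated library. NOTCH3 is itself among these genes and was the 1 gene at 0 in both combination libraries, so these shares include it. The 2 sets differ in count range, in the libraries that define them, and in the libraries counted, so their shares are not compared. Of 9 smooth muscle markers, 6 had a mean of at least 1 CPM (counts per 1000000 counts of normalised library size) in SK-LMS-1 and 4 in SK-UT-1B, and their summed level was 538 to 621 CPM in SK-LMS-1 and 85.0 to 124 CPM in SK-UT-1B. DES was at 0 counts in all SK-LMS-1 libraries and MYOCD in all SK-UT-1B libraries. Of 5 epithelial markers, the keratins KRT8, KRT18, and KRT19 reached that mean in SK-LMS-1, and none did in SK-UT-1B. The list summed to 163 to 264 CPM in SK-LMS-1, where CDH1 was at 0 counts in all libraries and EPCAM stayed below that mean. SK-UT-1B is the line that the study describes as epithelial-like in morphology. Endothelial and immune marker lists summed to at most 9.40 and 2.47 CPM in any library.

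The stretch of each receptor that gamma secretase cuts lies in the membrane, and its coding sequence is given because it is the substrate of the enzyme that MK-0752 inhibits. For each receptor the 93 bases below come from the GENCODE v44 canonical transcript on hg38, with capitals for the 63 bases that encode the most hydrophobic run of 21 residues and 15 bases on each side, written 5′ to 3′ on the minus strand, where all 4 genes lie. Each stretch fell within 1 coding exon, at chr9:136502373-136502465 for NOTCH1, chr1:119922340-119922432 for NOTCH2, chr19:15170438-15170530 for NOTCH3, and chr6:32199042-32199134 for NOTCH4.
NOTCH1: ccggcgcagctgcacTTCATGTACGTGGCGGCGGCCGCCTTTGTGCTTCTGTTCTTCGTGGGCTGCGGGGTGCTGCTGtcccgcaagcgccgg
NOTCH2: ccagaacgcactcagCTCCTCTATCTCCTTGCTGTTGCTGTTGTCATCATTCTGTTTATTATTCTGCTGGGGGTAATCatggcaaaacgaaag
NOTCH3: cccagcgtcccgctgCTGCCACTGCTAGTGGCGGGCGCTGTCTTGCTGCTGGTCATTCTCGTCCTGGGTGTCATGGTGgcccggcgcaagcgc
NOTCH4: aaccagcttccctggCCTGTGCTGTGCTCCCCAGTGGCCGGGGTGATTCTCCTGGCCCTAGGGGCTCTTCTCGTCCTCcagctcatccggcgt
Position by position, NOTCH1 and NOTCH3 shared 44 of the 93 bases, and the other pairs shared 32 to 37. The exon counted from the start codon was 28 of 34 in NOTCH1 and NOTCH2, 27 of 33 in NOTCH3, and 24 of 30 in NOTCH4.

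**Figure D1:**
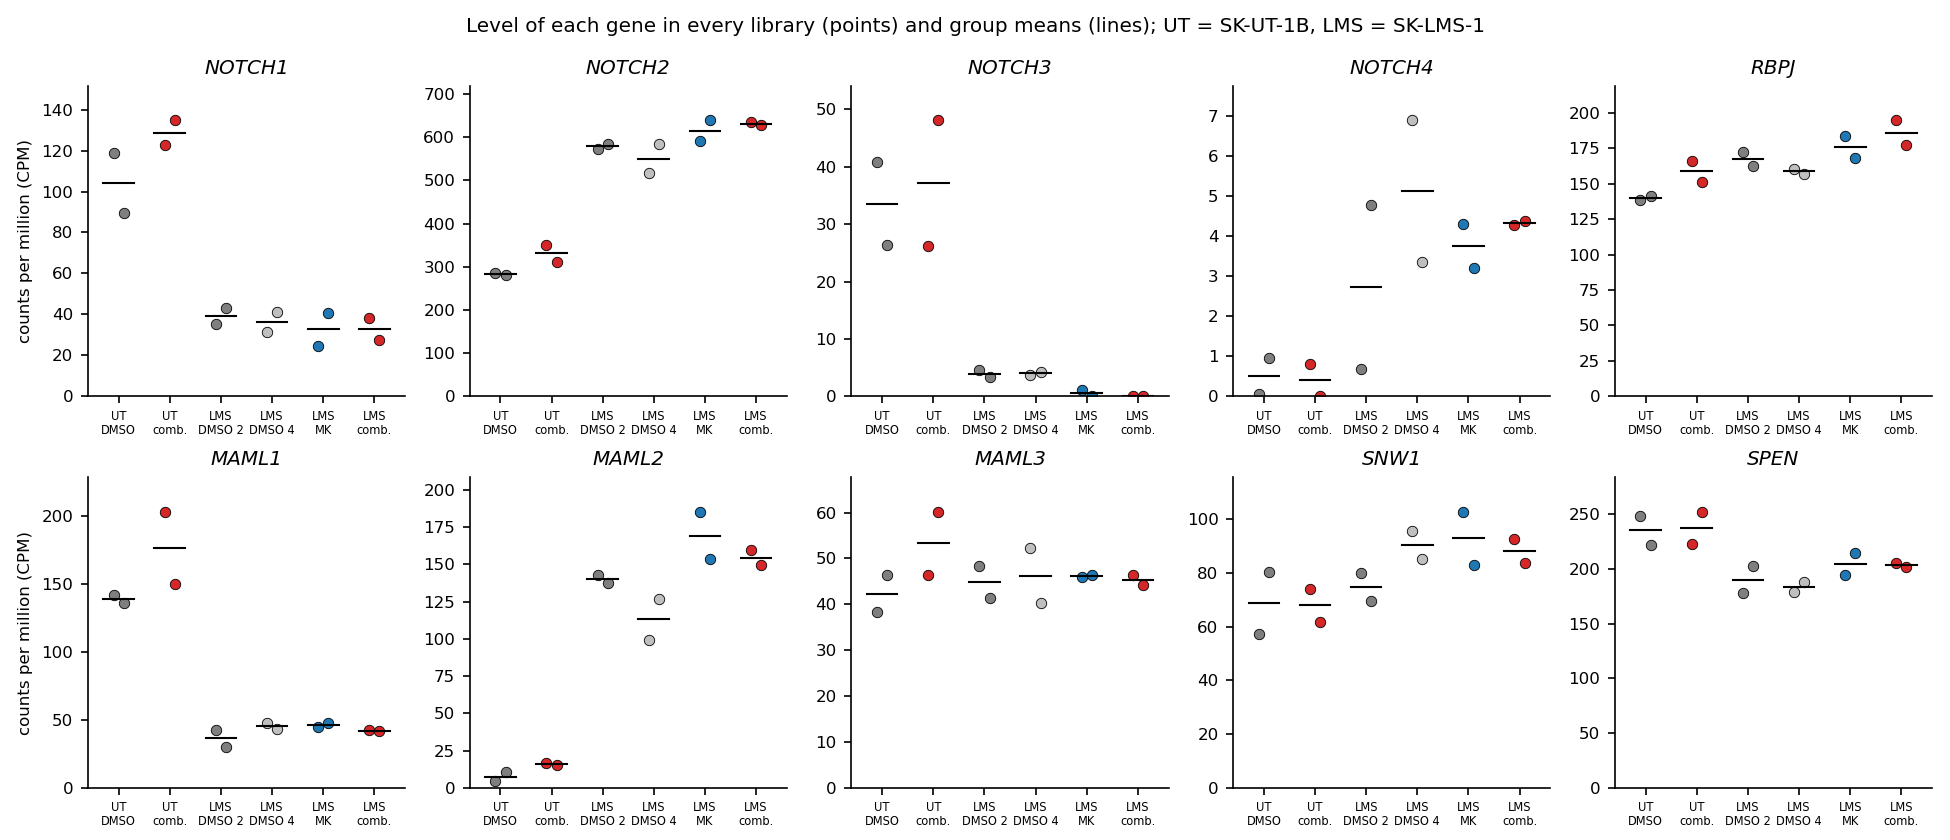
Level of each of the 10 genes in every library, in CPM on a linear axis from 0, by line (UT, SK-UT-1B and LMS, SK-LMS-1) and treatment (comb., combination; MK, MK-0752; DMSO 2 and DMSO 4, the SK-LMS-1 DMSO libraries by first number). Points are libraries and lines are means of 2. NOTCH3 lies between 3.30 and 4.56 CPM in all 4 DMSO libraries of SK-LMS-1 and at 0, 0, 0, and 1.15 CPM in the 4 treated ones.

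The receptors were compared first within each line after DMSO, as CPM per kilobase of merged exon, so that genes of different length could be set side by side. NOTCH2 was the most abundant receptor in both lines, with a level of 17.0 ± 0.18 CPM per kb in SK-UT-1B (SD, n = 2) and 33.7 ± 1.96 CPM per kb in SK-LMS-1 (SD, n = 4). NOTCH1 followed at 8.30 ± 1.66 CPM per kb in SK-UT-1B and 3.01 ± 0.44 CPM per kb in SK-LMS-1. The next was NOTCH3, at 3.57 ± 1.09 CPM per kb in SK-UT-1B and 0.424 ± 0.0587 CPM per kb in SK-LMS-1. NOTCH4, best known from endothelium, was lowest at 0.0525 ± 0.0642 CPM per kb in SK-UT-1B and 0.404 ± 0.267 CPM per kb in SK-LMS-1. The libraries of neighbouring receptors in this order did not overlap, except NOTCH3 and NOTCH4 in SK-LMS-1.

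Among the nuclear genes, SNW1 had the highest level per length in both lines, at 28.3 ± 6.73 CPM per kb in SK-UT-1B and 34.0 ± 4.44 CPM per kb in SK-LMS-1. It overlapped the next gene in the order in both, which was MAML1 in SK-UT-1B and NOTCH2 in SK-LMS-1. RBPJ was at 9.13 ± 0.15 CPM per kb in SK-UT-1B and 10.6 ± 0.43 CPM per kb in SK-LMS-1. The MAML genes changed places between the lines. In SK-UT-1B after DMSO the order was MAML1 (23.2 ± 0.64 CPM per kb), MAML3 (6.18 ± 0.83), and MAML2 (1.04 ± 0.61), with no overlap between them. In SK-LMS-1 it was MAML2 (17.8 ± 2.74 CPM per kb), followed by MAML1 (6.86 ± 1.26) and MAML3 (6.65 ± 0.84), which overlapped each other. SPEN was at 15.5 ± 1.27 CPM per kb in SK-UT-1B and 12.3 ± 0.75 CPM per kb in SK-LMS-1.

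**Figure D2:**
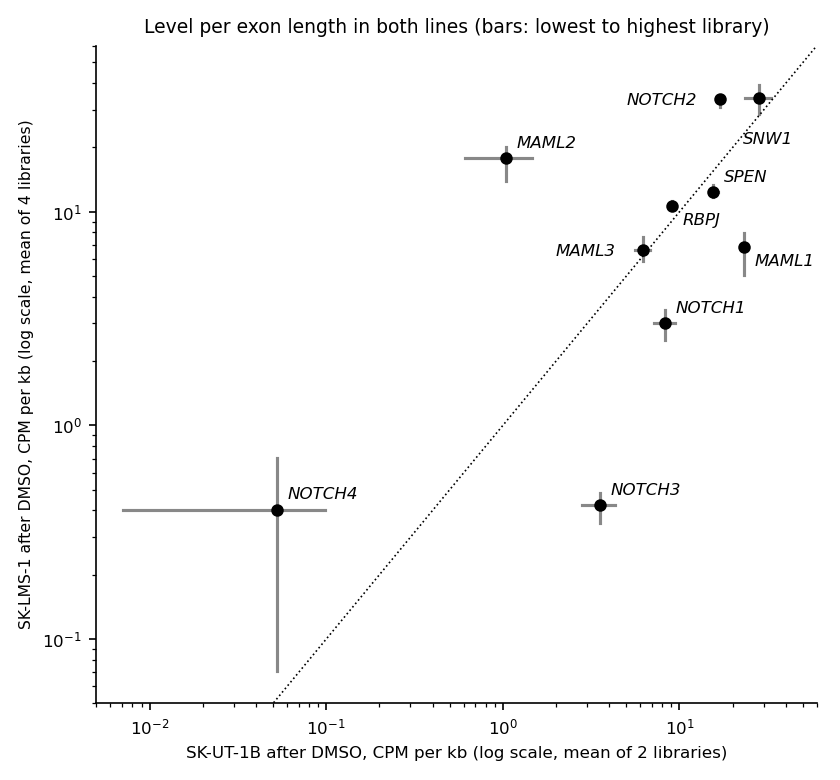
Level after DMSO in SK-UT-1B (horizontal, mean of 2 libraries) against SK-LMS-1 (vertical, mean of 4 libraries), in CPM per kb of merged exon on log axes, with bars from the lowest to the highest library and a dotted line of equal levels. MAML2 and NOTCH2 lie above that line, as does NOTCH4, whose libraries overlapped between the lines. NOTCH1, NOTCH3, and MAML1 lie below it, SPEN slightly below it, and RBPJ, MAML3, and SNW1 close to it.

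The question of how the lines differ in receptors and nuclear partners was addressed first without drug. After DMSO, 6 of the 10 genes differed at an adjusted p under 0.05 (edgeR quasi-likelihood, Benjamini-Hochberg over 21114 genes), 2 higher and 4 lower in SK-LMS-1. Of all genes tested, 41.0% did so, with 21.5% higher and 19.5% lower. After the combination, 5 of the 10 differed (2 higher, 3 lower), where 32.9% of all genes did, 19.3% higher and 13.6% lower. DESeq2 called 7 and 6 of the 10 in these comparisons and 51.1% and 43.3% of the genes to which it gave an adjusted p. A newer edgeR quasi-likelihood called 7 and 6 of the 10 and 44.5% and 36.6% of all genes. After DMSO each of these methods called the same 6 genes and another among NOTCH4, RBPJ, MAML3, and SNW1. The median log2FC of the 10 genes was 0.16 after DMSO, against 0 for all genes.

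Of the 10 genes, MAML2 showed the widest difference after DMSO. Its level was 4.33 and 10.5 CPM in the SK-UT-1B DMSO libraries 4-1 and 4-2, and 143, 137, 99.1, and 127 CPM in the DMSO libraries of SK-LMS-1 2-1, 2-3, 4-1, and 4-2. Every SK-LMS-1 library was far above both SK-UT-1B libraries, although the SK-UT-1B pair themselves differed. The log2FC was 4.08 ± 0.31 (SE, adjusted p = 5.21e-08 by edgeR). It was 3.55 without SK-UT-1B DMSO library 4-1 and 4.86 without 4-2. After the combination the log2FC of MAML2 was 3.26 ± 0.31 (SE, adjusted p = 8.66e-07 by edgeR). MAML2 shares 549 exon bases with a long noncoding RNA on the opposite strand, which had at most 12 counts in any library.

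MAML1 lay the other way. It was at 141 and 136 CPM in the SK-UT-1B DMSO libraries and at 42.5, 30.1, 47.7, and 43.3 CPM in the DMSO libraries of SK-LMS-1, so that the lines did not overlap. The log2FC was -1.77 ± 0.17 (SE, adjusted p = 3.66e-08 by edgeR) after DMSO and -2.07 ± 0.21 (SE, adjusted p = 1.28e-07) after the combination. MAML3 was at 38.3 and 46.3 CPM in SK-UT-1B and 40.2 to 52.2 CPM in SK-LMS-1 after DMSO. The MAML3 lines overlapped, with a log2FC of 0.10 and a 95% interval of -0.31 to 0.52.

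As a share of the summed MAML level per length, MAML1 made up 75.3 ± 4.62% in SK-UT-1B (SD, n = 4, DMSO and combination) and 21.1 ± 3.17% in SK-LMS-1 (SD, n = 8, all treatments). MAML2 made up 4.57 ± 1.78% in SK-UT-1B and 59.2 ± 5.42% in SK-LMS-1. MAML3 held a like share in both lines, 20.2 ± 3.72% and 19.8 ± 2.69%. The ranges of MAML1 and MAML2 did not overlap between the lines in any treatment.

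**Figure D3:**
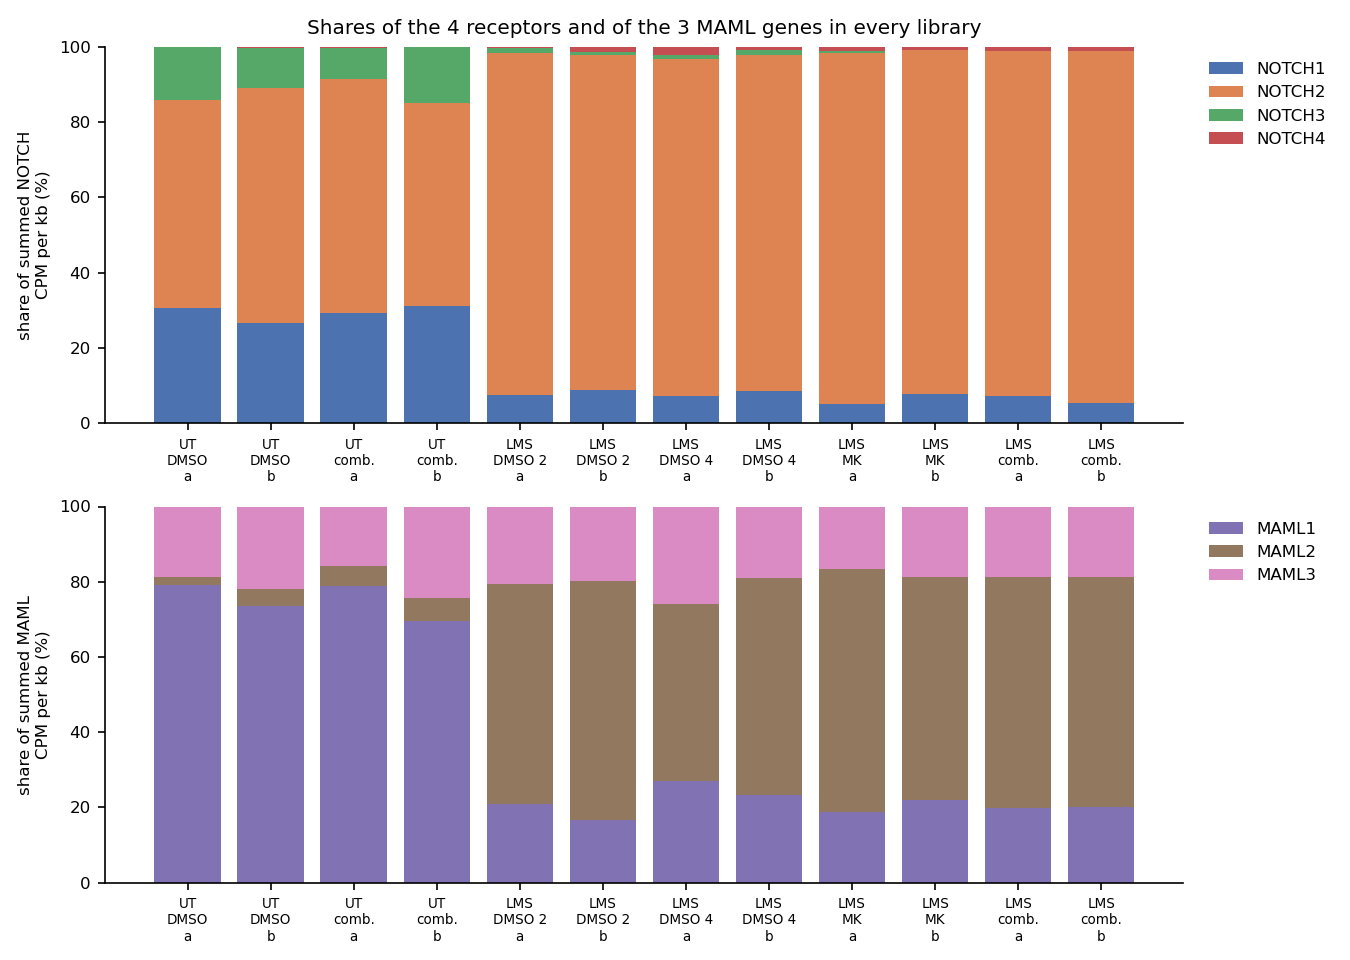
Shares of the 4 receptors (top) and of the 3 MAML genes (bottom) in the summed CPM per kb of each family, in percent, with 1 bar for each library (a and b, the 2 libraries of a group in label order). NOTCH2 is 54.0% to 62.7% of the receptor total in SK-UT-1B and 89.1% to 93.4% in SK-LMS-1, and MAML1 and MAML2 change places between the lines.

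NOTCH2, a receptor of broad expression, was higher in SK-LMS-1. It was at 286 and 282 CPM in the SK-UT-1B DMSO libraries and at 574, 585, 516, and 584 CPM in the DMSO libraries of SK-LMS-1. All SK-LMS-1 values lay above those of SK-UT-1B, with a log2FC of 0.99 ± 0.12 (SE, adjusted p = 1.23e-06 by edgeR) after DMSO and 0.93 ± 0.13 (SE, adjusted p = 1.38e-05) after the combination. The NOTCH2NL copies, which carry the start of NOTCH2, had at most 58 counts in any library where NOTCH2 had at least 8272, and NOTCH2P1 had 0. How reads common to NOTCH2 and these copies were counted is not given in the sources used here.

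NOTCH1 and NOTCH3 were lower in SK-LMS-1. NOTCH1 was at 119 and 89.3 CPM in the SK-UT-1B DMSO libraries and at 35.3, 43.3, 31.3, and 41.2 CPM in the DMSO libraries of SK-LMS-1. The lines did not overlap, and the log2FC was -1.46 ± 0.21 (SE, adjusted p = 1.0e-05 by edgeR) after DMSO and -1.97 ± 0.26 (SE, adjusted p = 5.01e-06) after the combination. NOTCH3 was at 40.8 and 26.4 CPM in the SK-UT-1B DMSO libraries and at 4.56, 3.30, 3.81, and 4.28 CPM in the DMSO libraries of SK-LMS-1. That was a log2FC of -3.07 ± 0.86 (SE, adjusted p = 0.0256 by edgeR). After the combination SK-UT-1B had 26.2 and 48.1 CPM and both SK-LMS-1 libraries had 0 counts of NOTCH3. Against a floor of 3 counts per library, the NOTCH3 level of SK-LMS-1 was lower by at least 348-fold than the SK-UT-1B mean (adjusted p = 0.00295 by edgeR). Against the lower SK-UT-1B library alone it was at least 246-fold. This floor covers counting error only.

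NOTCH4 did not pass the test between the lines. It had 2 and 36 counts in the SK-UT-1B DMSO libraries, 30 and 0 after the combination, and 24 to 170 in the 8 SK-LMS-1 libraries. The log2FC was 2.85 ± 1.39 (SE, adjusted p = 0.112 by edgeR) after DMSO and 3.37 ± 1.52 (SE, adjusted p = 0.102) after the combination, and the SK-LMS-1 library DMSO 2-1, at 0.688 CPM, fell within the SK-UT-1B range. With DESeq2 the second difference had an adjusted p of 0.0463. Its size rested on the SK-UT-1B pair, at a log2FC of 2.40 without library 3-3 and 10.09 without 3-1, which leaves 0 counts in SK-UT-1B and gives a fitted value that is no bound. NOTCH4 shares 98 exon bases with GPSM3 on the same strand, which had up to 503 counts.

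As shares of the summed receptor level per length, NOTCH2 made up 58.6 ± 4.56% in SK-UT-1B (SD, n = 4) and 91.1 ± 1.68% in SK-LMS-1 (SD, n = 8). NOTCH1 made up 29.4 ± 2.09% and 7.23 ± 1.29%. NOTCH3 made up 11.9 ± 3.07% in SK-UT-1B. Its share in SK-LMS-1 was 1.09 ± 0.28% and 1.17 ± 0.0071% in the DMSO libraries of first number 2 and 4, 0.162 ± 0.229% after MK-0752, and 0% in both combination libraries (SD, n = 2 each). NOTCH4 was between 0% and 2.05% in any library. The receptor sum itself was 28.9 ± 2.87 CPM per kb in SK-UT-1B after DMSO, and 38.4 ± 1.15 and 36.7 ± 3.19 CPM per kb in SK-LMS-1 DMSO libraries of first number 2 and 4 (SD, n = 2 each).

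RBPJ, SNW1, and SPEN differed little between the lines. RBPJ was at 138 and 141 CPM in SK-UT-1B and 157 to 172 CPM in SK-LMS-1 after DMSO, which did not overlap, and its log2FC was 0.22 with a 95% interval of -0.05 to 0.49 (adjusted p = 0.186 by edgeR). SNW1 was at 57.4 and 80.5 CPM in SK-UT-1B and 69.7 to 95.7 CPM in SK-LMS-1, with a log2FC of 0.25 and a 95% interval of -0.12 to 0.62. SPEN was at 249 and 222 CPM in SK-UT-1B and 178, 202, 179, and 188 CPM in SK-LMS-1 after DMSO. The SPEN libraries did not overlap, with a log2FC of -0.33 ± 0.13 (SE, adjusted p = 0.0437 by edgeR), but with the newer edgeR quasi-likelihood and a library left out the adjusted p ran from 0.0287 to 0.252, under 0.05 without SK-LMS-1 DMSO 2-3 or 4-2 and above it without each of the other 4. Overlapping genes on the opposite strand share exon bases with SNW1 (SLIRP, 118 bases), SPEN (SPEN-AS1, 831 bases), and MAML3 (MGST2, 252 bases), and the strand setting of the counts is not given in the sources used here.

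The 300 bases around a transcription start site, 250 before and 50 after, were searched for the RBPJ-binding motif GTGGGAA on both strands (reverse complement TTCCCAC). Of 35116 RefSeq windows (GRCh38.p14), 6.25% held the motif and 0.248% held it at least 2 times. The 10 genes had 14 windows, 5 of them of RBPJ, and 2 windows held a match. Both are shown because they lie before or at start sites of RBPJ itself and of SPEN, with the motif in capitals, written 5′ to 3′ on the plus strand, at chr4:26319496-26319795 for RBPJ and chr1:15847457-15847756 for SPEN.
RBPJ: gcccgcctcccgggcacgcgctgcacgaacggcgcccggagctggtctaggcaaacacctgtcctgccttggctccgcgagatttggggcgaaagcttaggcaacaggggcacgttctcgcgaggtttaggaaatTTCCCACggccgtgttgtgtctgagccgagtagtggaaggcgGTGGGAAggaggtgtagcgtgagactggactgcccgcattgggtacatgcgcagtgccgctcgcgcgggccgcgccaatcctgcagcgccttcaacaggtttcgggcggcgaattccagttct
SPEN: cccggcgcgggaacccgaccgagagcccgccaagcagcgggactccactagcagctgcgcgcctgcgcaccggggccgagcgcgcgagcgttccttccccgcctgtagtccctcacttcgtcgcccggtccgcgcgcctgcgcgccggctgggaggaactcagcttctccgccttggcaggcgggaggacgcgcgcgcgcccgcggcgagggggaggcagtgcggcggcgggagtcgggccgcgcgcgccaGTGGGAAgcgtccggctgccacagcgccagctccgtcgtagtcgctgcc
The RBPJ window held 1 match in each orientation, and the SPEN window held 1. A match describes the letters of the window and was not tested for binding.

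The effect of the drugs was compared in 3 contrasts. With edgeR, 0 of the 10 genes passed an adjusted p under 0.05 after the combination in SK-UT-1B, where 0.715% of all genes did, 0 after MK-0752 in SK-LMS-1, where 0.365% did, and 0 after the combination in SK-LMS-1, where 0.0237% did. One gene in each contrast had an unadjusted p under 0.05, as did 10.5%, 6.41%, and 4.33% of all genes. DESeq2 called more unchanged genes than edgeR in simulated libraries of this design. It also recovered more of the changed genes, 71.5% against 66% in the simulated SK-UT-1B contrast. How common zeros were in the simulated libraries was not compared with these data, so the simulation does not rank the methods here. With DESeq2, 1, 0, and 1 of the 10 genes passed. So did 3.86%, 1.36%, and 0.278% of the genes to which it gave an adjusted p. With the newer edgeR quasi-likelihood 0 of the 10 passed in each, and 0.895%, 0.928%, and 0.0379% of all genes did. The median log2FC of the 10 genes was 0.20, 0.09, and -0.03, against 0, 0, and 0.03 for all genes.

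**Figure D4:**
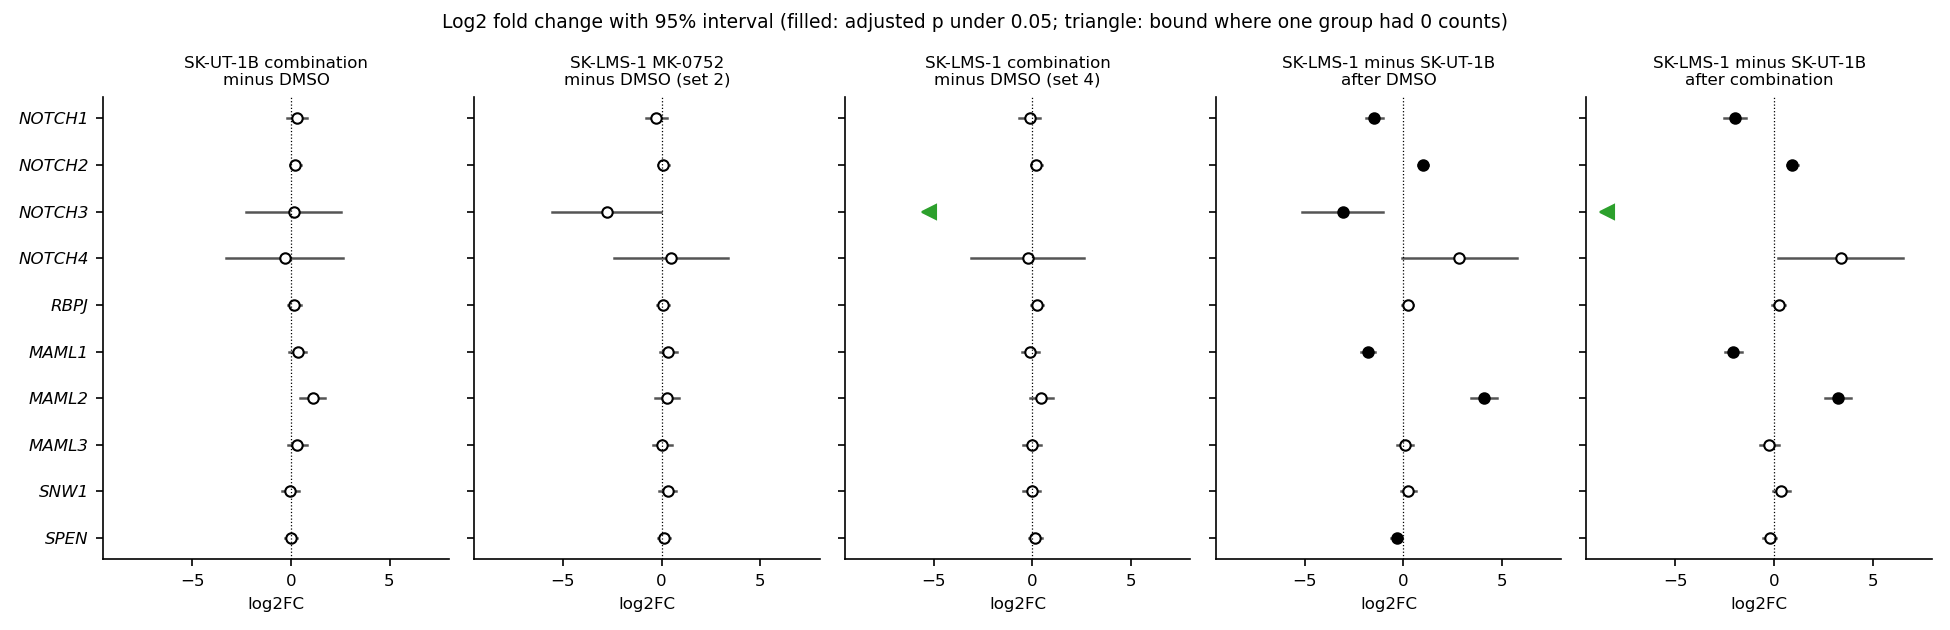
Log2FC of each gene with its 95% interval from edgeR in the 3 treatment contrasts and the 2 contrasts between lines. Filled points have an adjusted p under 0.05, and triangles mark the bound for NOTCH3 where both SK-LMS-1 combination libraries had 0 counts, which was called between the lines (adjusted p = 0.00295) and not against DMSO (adjusted p = 0.907). In the treatment contrasts, MAML2 in SK-UT-1B and NOTCH3 in SK-LMS-1 lie farthest from 0.

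NOTCH3 in SK-LMS-1 was the receptor with the largest treatment difference. Its counts were 159, 91, 94, and 165 in the DMSO libraries 2-1, 2-3, 4-1, and 4-2. MK-0752 left 41 in library 2-2 and 0 in 2-3, and the combination left 0 in both 4-1 and 4-2. All 4 DMSO libraries lay above all 4 treated libraries, and 1.78% of all genes tested had that order.

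After the combination NOTCH3 was at least 37.9-fold lower than the mean of the DMSO libraries of first number 4, against a floor of 3 counts per library. Against the lower of these DMSO libraries alone it was at least 35.8-fold. The unadjusted p was 0.00374 and the adjusted p 0.907 by edgeR, and DESeq2 gave an adjusted p of 0.00826. After MK-0752 the log2FC was -2.77 ± 1.16 (SE, adjusted p = 0.778 by edgeR), and the single library with counts decided its size: without it the fit compared 0 counts with DMSO, and without the library at 0 the log2FC was -1.77.

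NOTCH3 in SK-UT-1B gave no such difference, at 1179 and 994 counts after DMSO and 958 and 1354 after the combination. The groups overlapped, with a log2FC of 0.14 and a 95% interval of -2.26 to 2.55. The difference between the lines in the combination effect on NOTCH3 had an adjusted p of 0.458 with edgeR and 0.0313 with DESeq2. The lines received the combination at different concentrations, which cannot be told apart from the line here. None of the 10 genes passed the test of this difference between the combination effects with edgeR, and 1 had an unadjusted p under 0.05. Among all genes 0.232% passed and 7.67% had an unadjusted p under 0.05. DESeq2 called 1 of the 10 and 1.08% of the genes to which it gave an adjusted p, and the newer edgeR quasi-likelihood called 0 of the 10 and 0.0284% of all genes.

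Of the 10 genes, MAML2 had the largest treatment difference in SK-UT-1B. DMSO gave 125 (4-1) and 394 (4-2) counts of it, the combination 607 (3-1) and 442 (3-3), or 4.33, 10.5, 16.6, and 15.7 CPM. Both treated libraries lay above both DMSO libraries, and the DMSO pair were farther apart than the treated pair. NOTCH1, NOTCH2, RBPJ, MAML1, and MAML3 had the same order, so that 6 of the 10 genes did, against 16.7% of all genes. In 0 of the 10 did both treated libraries lie below both DMSO libraries, as in 15.4% of all genes. The log2FC was 1.12 ± 0.29 (SE, unadjusted p = 0.00201, adjusted p = 0.126 by edgeR), and it was 0.61 without the lower DMSO library (4-1) and 1.90 without the higher (4-2). DESeq2 gave an adjusted p of 0.0134.

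In SK-LMS-1, MAML2 was at 99.1 to 143 CPM in the 4 DMSO libraries, 185 and 154 CPM after MK-0752, and 159 and 149 CPM after the combination. NOTCH2 was at 516 to 585 CPM after DMSO, 591 and 639 CPM after MK-0752, and 636 and 627 CPM after the combination. For both genes all 4 treated libraries lay above all 4 DMSO libraries, an order that 2.70% of all genes had. Neither passed the test: MAML2 had a log2FC of 0.27 ± 0.28 after MK-0752 and 0.45 ± 0.28 after the combination (SE, adjusted p = 0.953 and 0.907 by edgeR). NOTCH2 had a log2FC of 0.08 ± 0.13 and 0.20 ± 0.13 (SE, adjusted p = 1 and 0.907 by edgeR). The remaining 7 genes overlapped between the treated and DMSO libraries of SK-LMS-1.

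The width of the intervals differed between genes. In SK-LMS-1 after MK-0752, the 95% interval of the log2FC was -0.24 to 0.39 for RBPJ and -0.21 to 0.42 for SPEN. It was -0.79 to 0.26 for NOTCH1, -0.08 to 0.77 for MAML1, and -0.32 to 0.87 for MAML2. After the combination in SK-LMS-1, it was -0.09 to 0.54 for RBPJ, -0.67 to 0.39 for NOTCH1, and -0.15 to 1.05 for MAML2, an interval that reaches past a log2FC of 1. After the combination in SK-UT-1B, it was -0.13 to 0.50 for RBPJ and -0.22 to 0.83 for NOTCH1. For NOTCH4 the intervals were wide, from -3.28 to 2.66 after the combination in SK-UT-1B, which left a change of several fold in either direction within the interval, and the libraries of a group differed widely (2 and 36 counts after DMSO, 30 and 0 after the combination).

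MK-0752 and the combination were also compared with each other in SK-LMS-1, each relative to its own DMSO libraries. None of the 10 genes passed with edgeR or DESeq2, 0 had an unadjusted p under 0.05, and among all genes 0.0379% passed and 5.18% had such a p. DESeq2 called 0.287% of its genes here and the newer edgeR quasi-likelihood 0.0758%. The SK-LMS-1 DMSO libraries of first number 4 and 2 were compared in the same way. None of the 10 genes passed with edgeR or DESeq2, 0 had an unadjusted p under 0.05, and among all genes 0% passed and 5.67% had such a p. DESeq2 called 0.228% of its genes here and the newer edgeR quasi-likelihood 0%.

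The same comparisons were made for the other steps of the pathway, in lists of ligands, receptor processing, glycosylation, endocytosis and ubiquitination, corepressors, coactivators, and targets. In the 3 treatment contrasts, ligands (7 tested of 8), processing enzymes (9), glycosyltransferases (8 of 9), and coactivators (6) gave 0 calls. Of all genes, 0.715% were called after the combination in SK-UT-1B, 0.365% after MK-0752 in SK-LMS-1, and 0.0237% after the combination there. At such shares, lists this short would mostly hold 0 calls whatever their genes. Among the ligands, DLL4 was at 11.9, 14.7, 23.8, and 12.1 CPM in SK-LMS-1 after DMSO (2-1, 2-3, 4-1, and 4-2), 2.24 and 1.85 CPM after MK-0752, and 5.59 and 6.48 CPM after the combination. All treated libraries lay below all DMSO libraries, and neither difference passed (adjusted p = 0.263 and 0.907 by edgeR). DLL4 was picked out after its values were seen. Of the 11 targets tested, 1 fell after each SK-LMS-1 treatment, HES1 in both. Of all genes, 0.365% were called after MK-0752 and 0.0237% after the combination, in either direction. The median log2FC of the target list was -0.84 after MK-0752 and -0.93 after the combination, against 0 and 0.03 for all genes. In SK-UT-1B after the combination 0 of the 11 targets were called, where 0.715% of all genes were. Their median log2FC was 0, as for all genes. The target HEY2 gave no reads in this line after either treatment and may itself set that median, which therefore says little about the list. The study reports lower HES1, NRARP, and HEY1 after the combination in both lines. In SK-UT-1B the mean level of NRARP went from 8.33 to 5.94 CPM and that of HEY1 from 2.31 to 1.11 CPM, neither called. HES1, the transcriptional repressor that Notch induces, was at 21.5, 25.5, 19.1, and 34.8 CPM in the DMSO libraries of SK-LMS-1 2-1, 2-3, 4-1, and 4-2. It was at 3.14 and 3.80 CPM after MK-0752 and 3.81 and 1.35 CPM after the combination. All treated libraries lay below all DMSO libraries, with a log2FC of -2.76 ± 0.51 (SE, adjusted p = 0.0153 by edgeR) for MK-0752 and -3.37 ± 0.52 (SE, adjusted p = 0.0227) for the combination. Since the treatments were chosen for a fall in HES1, this is not independent evidence of its direction. In SK-UT-1B, HES1 was at 8.38 and 7.21 CPM after DMSO and 2.51 and 2.27 CPM after the combination (log2FC -1.70 ± 0.49, SE, adjusted p = 0.141 by edgeR).

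In SK-UT-1B the ubiquitin ligase DTX3 rose after the combination, from 4.88 and 7.21 CPM to 25.9 and 14.4 CPM (log2FC 1.73 ± 0.34, SE, adjusted p = 0.0177 by edgeR). The corepressor TLE4 was at 93 and 55 counts after DMSO and at 0 in both combination libraries. That was at least 24.8-fold lower against a floor of 3 counts per library (adjusted p = 7.21e-06 by edgeR). Without DMSO library 4-1 it was at least 15.5-fold. In combination libraries 3-1 and 3-3, 22.9% and 26.0% of genes predicted at 5 to 500 counts were at 0. How often like genes were at 0 in both was not counted, and the first library number also differed from DMSO. In SK-LMS-1, TLE4 was at 48.7 to 56.7 CPM after DMSO and 62.8 to 76.0 CPM in the treated libraries.

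Between the lines after DMSO, calls were common in each list, as they were among all genes, of which 41.0% were called, 21.5% higher and 19.5% lower in SK-LMS-1. Of 7 ligands tested, 3 were higher in SK-LMS-1 and 3 lower. DNER, a noncanonical ligand, had a log2FC of 7.91 ± 0.33 (SE) and JAG1 4.23 ± 0.21 (SE). Of 9 processing genes, 3 were higher, with the protease FURIN at 1.99 ± 0.20 (SE), and 1 was lower. Of 8 glycosyltransferases, 2 were higher (EOGT 1.10 and POFUT1 0.68, which adds the fucose that Notch receptors carry) and 1 lower.

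Against those same shares of 21.5% higher and 19.5% lower among all genes, of the 6 coactivators 1 was higher in SK-LMS-1 (the acetyltransferase KAT2B, log2FC 2.60 ± 0.24, SE) and 4 lower, among them the acetyltransferase EP300 (log2FC -1.19 ± 0.13, SE), with a median log2FC of -1.03 against 0 for all genes. Of the 15 corepressors, 3 were higher, with TLE1 at 3.31 ± 0.24 and TLE4 at 4.50 ± 0.31 (SE), and 7 lower. Of 16 genes of endocytosis and ubiquitination, 5 were higher, with NEDD4L at 3.94 ± 0.20 and NUMB, an inhibitor of Notch, at 2.04 ± 0.17 (SE), and 3 lower. Of 11 targets, 2 were higher, HES1 and the cyclin CCND1 (log2FC 2.73 ± 0.12, SE), and 5 were lower, among them SOX9 (log2FC -1.25 ± 0.12, SE).

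The genes whose levels moved most like each receptor were sought over the 12 libraries after centring on the mean of each line, among genes with a mean of at least 100 counts. For NOTCH1 they were HMGXB3 (r = 0.85), APPL2 (r = 0.85), and NECAB3 (r = 0.83). For NOTCH2 they were BIRC6 (r = 0.94), TPP1 (r = 0.93), and ZNF532 (r = 0.92). For NOTCH3 they were PGM5 (r = 0.93), LINC01435 (r = 0.93), and COL14A1 (r = 0.90), and for NOTCH4 SGTB (r = 0.90), TIAL1 (r = 0.89), and VWDE (r = 0.89). These are the highest of 12211 or 12212 values of r each, over libraries that share depth and treatment, and they are given as a description.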

How the data were processed

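The 12 RNA libraries (rRNA-depleted, stranded kit, single-end reads) were all analysed. Per the labels and the study's methods, the authors trimmed reads with Trim Galore 0.3.7, aligned them to hg38 with STAR 2.7.9a, removed ribosomal RNA, and deposited raw counts per gene, without normalization. The annotation, strand setting, and duplicate removal are not given in the sources used here. Strand and duplicates bear on genes with overlapping partners and on the spread between libraries.

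The 10 genes, the pathway lists, and the tests were chosen with earlier results of these data known. All 10 genes are named, with the 3 genes most correlated with each receptor. From each pathway list, genes called in a treatment contrast and the 2 with the smallest p between the lines after DMSO are named, apart from 1 gene that is not reported here. MAML2 and NOTCH3 were described in more detail after their values were seen.

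Line and treatment, with the first number for DMSO in SK-LMS-1, gave 6 groups of 2 libraries. Counts were tested with edgeR 4.0.16 in R 4.3.3 (TMM, filterByExpr, robust quasi-likelihood over all groups, Benjamini-Hochberg over 21114 genes, two-sided). Calls were at an adjusted p under 0.05. CPM used TMM library sizes. Merged exon lengths came from GENCODE v44, in which all 10 genes matched by identifier. The tests were checked on simulated data, where a larger share of DESeq2 calls than of edgeR calls was false (28.9% against 5.71%). DESeq2 also recovered more of the changed genes there (71.5% against 66%). Zeros in the simulated data were not compared with those in these libraries, so this check does not rank the methods for these data. DESeq2 1.42.0, other normalization and filters, other controls, each library left out, and a newer edgeR quasi-likelihood were tried. Totals of 25250057 to 40709885 put 3 counts at 0.0777 to 0.123 CPM, and these floors cover counting error only, while the 95% intervals of log2FC come from the edgeR fit and include the spread between libraries. Protein sequences were not used here.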

Additional observations from a re-analysis of the deposited data

Results flagged for a closer look

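TLE4, a corepressor, differed between the lines in its response to the combination: the SK-UT-1B effect minus the SK-LMS-1 effect was -9.63 on the fitted log2 scale (adjusted p = 2.82e-05 by edgeR). Both SK-UT-1B combination libraries were at 0 counts, so that the size of this value depends on the fit and is no bound. Zeros were common in these libraries, as given above. The drug concentrations differed between the lines, and in SK-UT-1B the first library number differed from DMSO. Neither can be told apart from the line in this contrast.

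NOTCH2 in the 4 SK-LMS-1 DMSO libraries had 1 library (4-1, 516 CPM) far from the other 3 (574 to 585 CPM), with a gap of 0.83 of the whole range. Among 10 genes examined this way, chance gives about 1 in 20 such groups.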

How the results depend on the processing

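Of the 10 genes, the number called in treatment contrasts rested on NOTCH3, MAML2, and the method. It went from 0 to 1 with DESeq2, and likewise without the filter on low counts, for the combination in SK-UT-1B (MAML2), the combination in SK-LMS-1 (NOTCH3), and the difference between these effects (NOTCH3), which was also 1 when only its own libraries were fitted. The cause was not tested. With a library left out, the numbers ran from 0 to 1 for the combination in SK-UT-1B, 0 to 1 for MK-0752, 1 to 1 for the combination in SK-LMS-1, 1 to 2 for the difference between lines, and 0 to 1 for the difference between SK-LMS-1 treatments. In these fits, and without the filter, the prior degrees of freedom that edgeR estimated became infinite, where the median was 13.2 with all libraries, and the values say nothing about stability. A newer edgeR quasi-likelihood (legacy off), chosen after seeing the data, called 0 in each treatment contrast with all libraries. Its prior degrees of freedom also became infinite without any single combination library of either line. Counts of treatment calls from its fits with a library left out are therefore not given.

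The number of genes that differed between the lines was 6 after DMSO and 5 after the combination. Among alternatives that kept a filter on low counts and every library of the comparison, it was 6 or 7 and 5 or 6. It was 7 and 6 with DESeq2 and with the newer method. MAML1, MAML2, NOTCH1, NOTCH2, and NOTCH3 passed in both under each of these alternatives. Fits without the filter or with a library left out are not counted here, since infinite prior degrees of freedom were common among them. NOTCH4 passed after the combination with DESeq2 and with the newer method (adjusted p = 0.0182). With the newer method, SPEN was lost without 4 of 6 libraries. No direction was reversed among the differences recomputed, which were those with an unadjusted p under 0.05, so that RBPJ, SNW1, and MAML3 were not among them. The SK-LMS-1 combination and DMSO libraries of first number 4 share second numbers that do not pair them (r = -0.02 between deviations of same-numbered libraries), and with a replicate block 0 genes were called, with NOTCH3 at an adjusted p of 1. Each group held 2 libraries, and NOTCH4 was low in all of them.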
